A study of Mus musculus with 9 samples.

Results

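The genes described here are 35 genes of blood and lymphatic vessels, taken by symbol from a list of ligands, receptors, endothelial markers, transcription factors, lymphatic markers and a pericyte marker. Of these, 34 were measured, each by 1 transcript cluster, among 22206 transcript clusters tested; Nrp1 was not analysed here. A transcript cluster is the set of array probes that stands for the transcripts of a gene. The glands were submandibular salivary glands, the mice were C57BL6/J females aged 12 weeks, and RNA was hybridised to Clariom S mouse arrays. There were 3 groups of 3 biological replicates: glands left to heal for 14 days after partial resection, glands left to heal for 3 days after partial resection, and glands taken 3 days after mock surgery. The only control analysed here was taken on day 3, so at day 14 the effect of resection and the time since surgery cannot be told apart.

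Vessels grow when vascular endothelial growth factors (VEGFs) bind receptor kinases on endothelial cells, helped by the co-receptors of the neuropilin family. Angiopoietins act through the TIE receptors to keep vessels quiet or to loosen them, and apelin acts on sprouting vessels through its own receptor. VEGFC and VEGFD act mainly on lymphatic vessels through FLT4, and the transcription factor PROX1 gives lymphatic endothelium its identity. In salivary glands a dense capillary bed supplies the fluid and solutes of saliva.

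All values are log2 levels as deposited, and differences are given on that scale ± the standard error (SE) of a linear model fitted with limma to all 9 arrays. A difference passed when its p-value, adjusted by Benjamini and Hochberg over all transcript clusters, was under 0.05. Between replicate arrays, the correlation over transcript clusters was 0.985 to 0.990. The gland markers Prol1, Pip and Klk1 sat at or near the array maximum of 19.93 on every array (lowest value 19.92), and the water channel Aqp5 was at 13.75 to 15.15, so the tissue carried its defining products. Of the 34 vessel genes, 18 were above the median of the 5222 negative control rows on all 9 arrays and 9 on some arrays. The other 7 (Apln, Aplnr, Esm1, Robo4, Sox17, Sox18 and Nos3) were above it on none. What those control rows contain is not given in the sources used here. The median is a lenient limit, since the 95th percentile of those rows was 8.21 to 8.52 over the arrays. The highest value of 24 of the vessel genes was under 8. The endothelial markers Pecam1, Cdh5, Kdr, Tek, Esam and Emcn were above the control median on all 9 arrays, Tie1 on 2 and Erg on 5. In whole tissue, fewer cells of a type and less RNA per cell cannot be told apart.

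Resected against mock glands on day 3 asks what removal of tissue added to surgery at the same time. Of the 34 vessel genes, 8 passed, where 6.27% of all transcript clusters did. There were 7 that rose (Nrp2, Aplnr, Eng, Cd34, Ednrb, Lyve1 and Pdpn) and 1, Vegfa, fell. That is 20.6% of the 34 higher, where 4.92% of all transcript clusters were called higher and 1.36% lower. The rises ran from 1.18 (Aplnr) to 2.55 (Ednrb), while the median over the 34 genes was 0.27, against -0.06 over all transcript clusters. The median of the negative control rows was also higher, 4.65 to 4.77 in day 3 resected arrays, against 4.41 to 4.52 in mock arrays. The part of this shift in small differences of dim genes was not tested. The other 26 genes did not pass and differed by -0.44 to 1.16. The count of 8 was 3 without day 3 resected replicate 3, 4 without day 3 resected replicate 2 and 5 without mock replicate 2. Groups did not overlap for 13 vessel genes that were higher and 1 that was lower, where 11.2% and 11.8% of all transcript clusters did the same (23.0% in either direction). Of all calls in this comparison 78.4% were higher, against 68.3% after quantile normalisation and 67.8% after median centring.

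**Figure D1:**
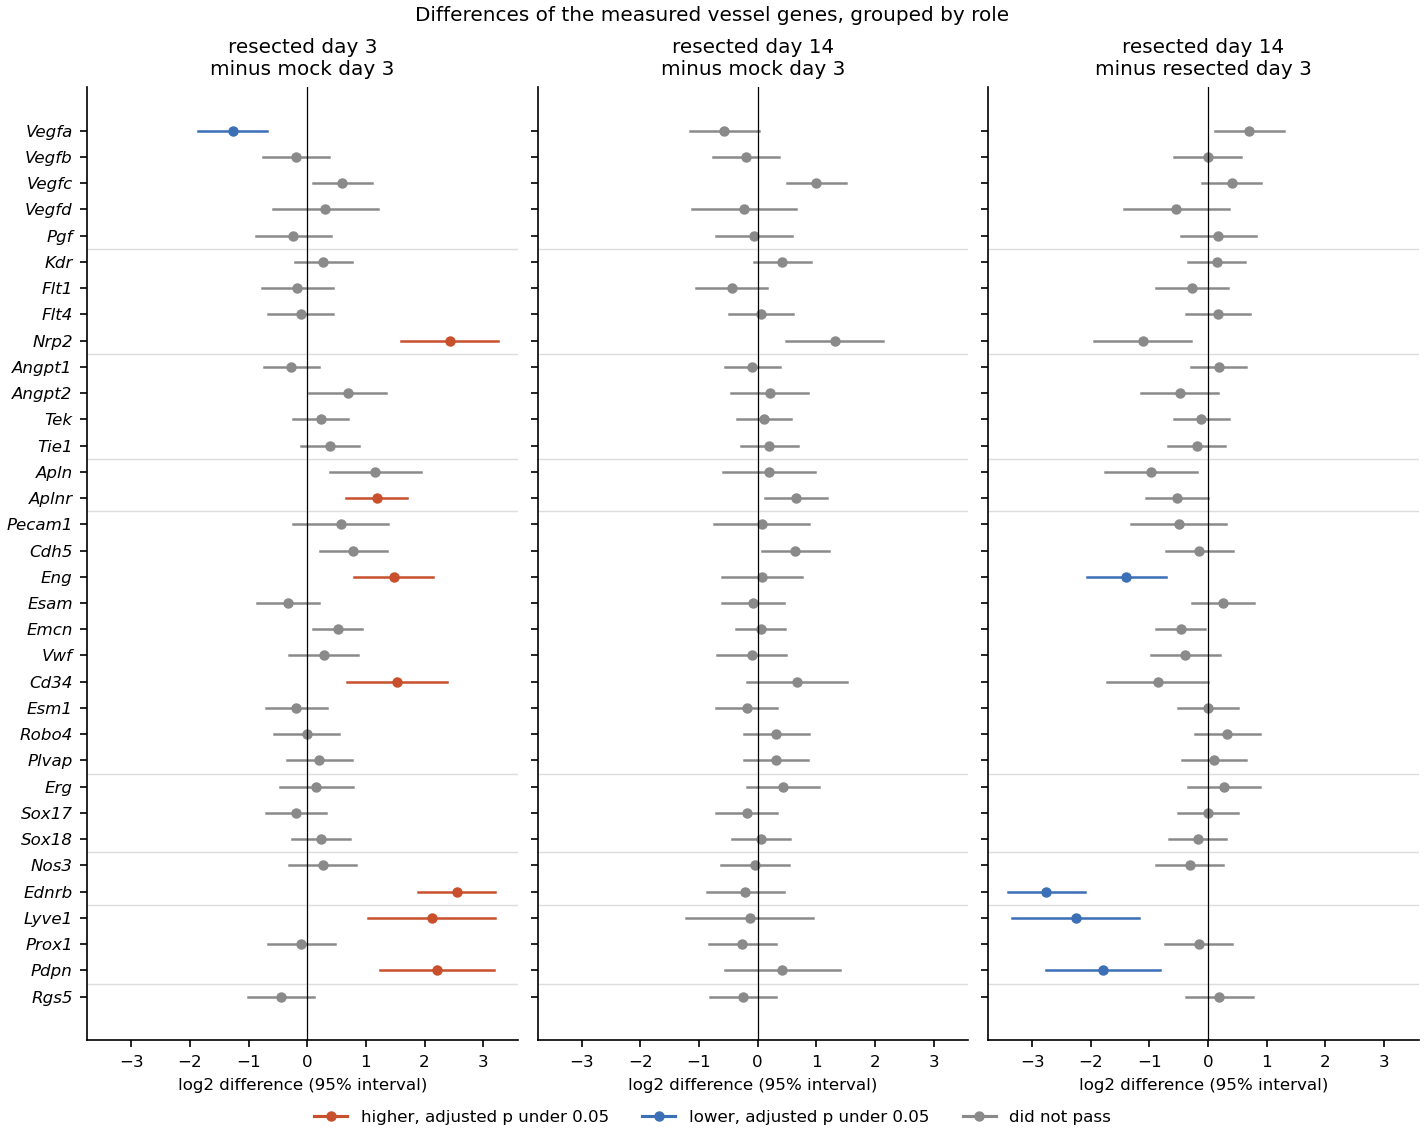
Log2 differences of the 34 measured vessel genes in the 3 comparisons, with points for the estimate and lines for its 95% interval, from the limma fit to all 9 arrays, ordered by role from VEGF ligands to the pericyte marker. In the left panel 7 genes are higher and Vegfa lower in day 3 resected glands, in the middle panel none passes, and in the right panel Eng, Ednrb, Lyve1 and Pdpn are lower on day 14.

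Among the VEGF ligands only Vegfa, the main growth factor of blood vessel endothelium, passed. It read 11.02, 10.52 and 11.12 in day 14 resected glands, 9.98, 9.98 and 10.60 in day 3 resected glands, and 11.11, 11.88 and 11.37 in mock glands. Every day 3 resected array lay below every mock array, and the day 14 arrays overlapped both groups. The difference on day 3 was -1.27 ± 0.27 (adjusted p = 0.0126, limma). Vegfa no longer passed when mock replicate 2 was dropped (-1.06, adjusted p = 0.0548), nor when day 3 resected replicate 2 was (-1.16, adjusted p = 0.0595). Vegfc, the ligand of lymphatic growth, did not pass on day 3 (0.60 ± 0.23, adjusted p = 0.179), with 7.05, 6.37 and 6.73 on day 14 and 6.44, 6.11 and 6.38 on day 3 after resection, against 5.89, 5.77 and 5.47 in mock glands. All 6 resected arrays were above all mock arrays for this gene. The other ligands were Vegfb (-0.19 ± 0.26), which acts on FLT1, Vegfd (0.31 ± 0.41) and the placental growth factor Pgf (-0.24 ± 0.30), and all had groups that overlapped.

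The promoter windows of Vegfa are shown because it was the 1 gene of the list that fell and is a known target of hypoxia-inducible factors. Each window is RefSeq sequence of build GRCm38.p6 from 250 bases before to 50 bases after a transcript start, on the minus strand of chromosome 17, at chr17:46032328-46032627 and chr17:46025114-46025413. Capitals mark matches on either strand to any of 5 motifs; a match on the other strand appears as its reverse complement. One is ACGTG, a form of the core of the hypoxia response element that hypoxia-inducible factors bind. The form GCGTG was not searched, so hypoxia core here means ACGTG only. Another is TGANTCA, the site of AP-1, a factor of early wound responses. The GC box that SP1 binds is spelled GGGCGG. For the TATA box, which places the start of transcription, the letters searched were TATAAA. For ETS factors such as ERG they were CCGGAA.
Vegfa, first window: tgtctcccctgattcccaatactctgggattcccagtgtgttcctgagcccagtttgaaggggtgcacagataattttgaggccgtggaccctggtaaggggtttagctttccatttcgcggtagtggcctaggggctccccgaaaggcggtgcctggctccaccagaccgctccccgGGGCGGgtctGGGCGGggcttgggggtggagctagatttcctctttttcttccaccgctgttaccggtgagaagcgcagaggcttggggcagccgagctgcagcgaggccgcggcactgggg
Vegfa, second window: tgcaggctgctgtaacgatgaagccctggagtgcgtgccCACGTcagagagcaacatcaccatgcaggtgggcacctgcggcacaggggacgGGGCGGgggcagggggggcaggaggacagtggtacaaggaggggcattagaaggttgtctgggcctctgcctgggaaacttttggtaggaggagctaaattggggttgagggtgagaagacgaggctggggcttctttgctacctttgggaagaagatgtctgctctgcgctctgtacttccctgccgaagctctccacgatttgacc
The first window held 2 GC boxes, and the second held 1 hypoxia core and 1 GC box. On the minus strand the second window lies downstream of the first, so its hypoxia core is not upstream of the first start. Sites more than 250 bases before a start lie outside the windows and were not searched. Of 32851 promoter windows in the table, 19.6% held the hypoxia core, 35.7% a GC box, 7.81% the AP-1 letters, 13.6% the TATA letters and 14.9% the ETS letters. Among the 27 windows found for 22 of the vessel genes, the hypoxia core was in 2 (Vegfa and Pdpn), a GC box in 14, TATA letters in 4, ETS letters in 1 (Kdr) and AP-1 letters in 0. A match to these letters is a description of the window and does not show binding.

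The VEGF receptors themselves did not pass. Kdr, the main signalling receptor of blood vessel endothelium, read 6.56, 7.16 and 6.56 on day 14 and 6.66, 6.42 and 6.76 on day 3 after resection, against 6.44, 6.28 and 6.30 in mock glands. Its day 3 difference was 0.27 ± 0.22, with a 95% interval of -0.21 to 0.76. Flt1, which also acts as a decoy for VEGFA, differed by -0.17 ± 0.28, and Flt4, the receptor of lymphatic endothelium, by -0.11 ± 0.25. The co-receptor Nrp2, which serves VEGFC and class 3 semaphorins, was the exception among the 4 receptors measured. It read 4.47, 4.15 and 5.63 on day 14 and 5.52, 5.54 and 6.53 on day 3 after resection, against 3.31, 3.84 and 3.16 in mock glands. All resected arrays were above all mock arrays. The rise on day 3 was 2.43 ± 0.38 (adjusted p = 0.00176, limma), and it still passed when any 1 array was left out. In mock glands Nrp2 was under the median of the negative control rows on all 3 arrays.

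None of the 4 angiopoietin and TIE genes passed on day 3. Angpt2, which loosens vessels and is stored by endothelium, had day 3 groups that overlapped (0.69 ± 0.30, adjusted p = 0.241, limma). It read 4.18, 4.70 and 4.81 on day 14 and 4.69, 4.84 and 5.61 on day 3 after resection, against 4.78, 4.39 and 3.89 in mock glands. Angpt1, the steadying ligand, differed by -0.27 ± 0.22. Tek, the angiopoietin receptor, read 5.07, 5.17 and 5.004 on day 14 and 5.51, 4.92 and 5.16 on day 3 after resection, against 4.84, 4.92 and 5.14 in mock glands. Its difference of 0.23 ± 0.21 had a 95% interval of -0.24 to 0.69. Its partner Tie1 differed by 0.39 ± 0.23 (adjusted p = 0.397), with groups that did not overlap. Tie1 was under the median of the negative control rows on every mock array.

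The apelin receptor Aplnr rose, and its ligand Apln had a like difference that did not pass. Aplnr read 3.85, 3.25 and 3.84 on day 14 and 3.93, 4.20 and 4.37 on day 3 after resection, against 3.26, 2.73 and 2.97 in mock glands. The day 3 arrays did not overlap with mock (1.18 ± 0.24, adjusted p = 0.00989, limma), and the call was lost without day 3 resected replicate 3 (1.08, adjusted p = 0.0545). Apln differed by 1.16 ± 0.36 (adjusted p = 0.0854), with 3.46, 4.27 and 4.15 on day 3 resected arrays and 2.77, 3.28 and 2.33 on mock arrays. Both genes stayed under the median of the negative control rows on every array, so these levels are near the array's background.

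Markers carried by most endothelial cells did not pass. Pecam1, the adhesion molecule of endothelial junctions, read 6.06, 6.60 and 6.47 on day 14 and 6.28, 7.35 and 7.003 on day 3 after resection, against 7.16, 5.61 and 6.16 in mock glands. The mock arrays alone spanned nearly the whole range of the 9 arrays. Its 95% interval on day 3 was -0.24 to 1.38. Cdh5, the cadherin of endothelial junctions, read 7.16, 6.71 and 7.20 on day 14 and 6.81, 6.94 and 7.75 on day 3 after resection, against 6.29, 6.31 and 6.54 in mock glands. Every resected array was above every mock array, but the difference of 0.79 ± 0.27 did not pass (adjusted p = 0.114). Over the 8 markers of blood vessel endothelium used as a check (Pecam1, Cdh5, Kdr, Tek, Tie1, Erg, Esam and Emcn), 0 passed, 7 had a positive difference and the median was 0.33, with a range of -0.33 (Esam) to 0.79 (Cdh5). Of these markers, 3 (Cdh5, Tie1 and Emcn) were higher without overlap between the groups, where 11.2% of all transcript clusters were. Emcn, a sialomucin of capillaries and veins, differed by 0.52 ± 0.19 (adjusted p = 0.153) without overlap between the groups. The transcription factors Erg (0.16 ± 0.28), Sox17 (-0.19 ± 0.24), an arterial factor, and Sox18 (0.24 ± 0.23) did not pass, nor did Vwf (0.28 ± 0.27), Plvap (0.21 ± 0.25), Esm1 (-0.19 ± 0.24), a marker of tip cells, and Robo4 (-0.01 ± 0.25).

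A pair of surface genes in the same class did rise. Eng, a co-receptor for TGF-beta family ligands that endothelium, activated macrophages and stromal cells carry, read 7.62, 8.57 and 7.80 on day 14 and 8.78, 9.57 and 9.83 on day 3 after resection, against 7.88, 8.17 and 7.72 in mock glands. The day 3 resected arrays lay above all others. The rise was 1.47 ± 0.31 (adjusted p = 0.0118, limma), lost without day 3 resected replicate 2 (1.38, adjusted p = 0.0530) or replicate 3 (1.25, adjusted p = 0.0672). Cd34, a sialomucin of capillary endothelium that fibroblasts and mast cells also carry, read 11.41, 10.82 and 10.94 on day 14 and 11.38, 11.78 and 12.60 on day 3 after resection, against 11.12, 10.56 and 9.49 in mock glands. Its groups did not overlap on day 3, but mock replicate 1 lay just under the lowest resected array. The rise of 1.53 ± 0.40 (adjusted p = 0.0377, limma) passed without mock replicate 1 or day 3 resected replicate 1 and did not pass without any other of the 6 arrays compared (1.08 to 1.62, adjusted p 0.0744 to 0.171). With only the groups compared, its adjusted p was 0.0880.

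Ednrb, the endothelin receptor that on endothelium triggers nitric oxide release and that other cell types also carry, rose most. It read 7.13, 7.33 and 6.69 on day 14 and 9.32, 9.65 and 10.45 on day 3 after resection, against 7.63, 7.09 and 7.06 in mock glands. The 3 day 3 resected arrays stood apart from the 6 others, which overlapped. The rise was 2.55 ± 0.30 (adjusted p = 2.56e-04, limma) and still passed when any 1 array was left out. Nos3, the nitric oxide synthase of endothelium, differed by 0.26 ± 0.26 and was under the median of the negative control rows on all 9 arrays.

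**Figure D2:**
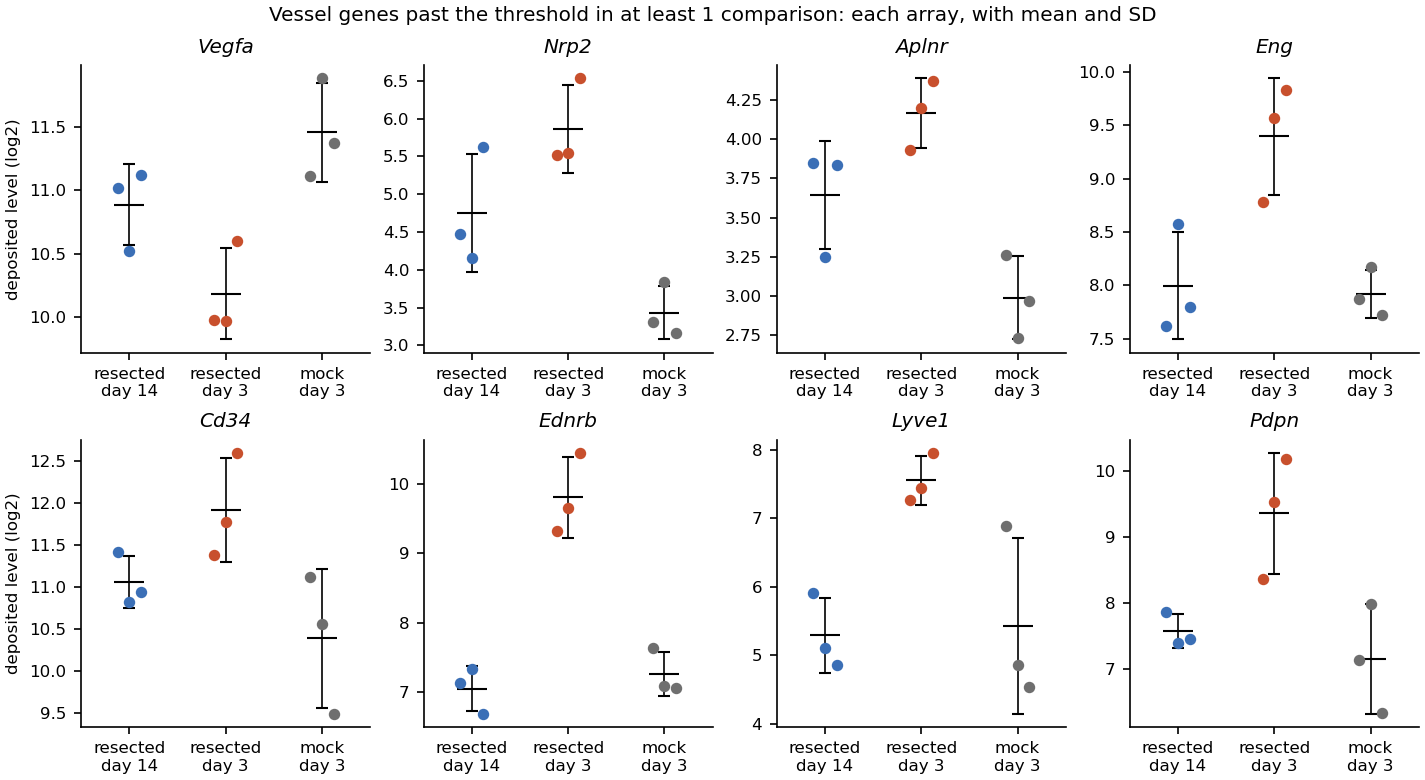
Deposited log2 level of the 8 vessel genes that passed the threshold in at least 1 comparison, with a dot for each array, a bar for the group mean and whiskers for the SD (n = 3); each panel has its own axis. The group mean of Vegfa is lowest and those of the other 7 genes are highest in day 3 resected glands, where Ednrb runs from 9.32 to 10.45 against 7.06 to 7.63 in mock glands.

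Of the lymphatic markers, 2 of 3 rose. Pdpn, a mucin-type protein of lymphatic endothelium that activated fibroblasts and macrophages also carry, read 7.87, 7.40 and 7.46 on day 14 and 8.37, 9.54 and 10.19 on day 3 after resection, against 7.13, 7.997 and 6.34 in mock glands. Every day 3 resected array lay above every mock array. The rise was 2.21 ± 0.45 (adjusted p = 0.00952, limma), lost without day 3 resected replicate 3 (1.80, adjusted p = 0.0521). Lyve1, a hyaluronan receptor of lymphatic endothelium and of a subset of tissue macrophages, read 5.91, 5.11 and 4.86 on day 14 and 7.26, 7.43 and 7.96 on day 3 after resection, against 6.89, 4.86 and 4.53 in mock glands. Mock replicate 1 stood far above the other mock arrays and close to the resected ones. The rise of 2.12 ± 0.50 (adjusted p = 0.0228, limma) became 2.86 (adjusted p = 4.86e-04) without mock replicate 1. Dropping either mock replicate 2 or 3, or likewise either of those numbers among the day 3 resected arrays, ended the Lyve1 call (1.68 to 2.18, adjusted p 0.0593 to 0.105), as did a fit with only the groups compared (adjusted p = 0.0563). Prox1, the factor that defines lymphatic endothelium, read 4.00, 4.50 and 4.38 on day 14 and 4.77, 3.98 and 4.62 on day 3 after resection, against 4.84, 4.62 and 4.20 in mock glands, and differed by -0.10 ± 0.27, with a 95% interval of -0.67 to 0.48. Of 6 other lymphatic genes (Ccl21a, Mmrn1, Reln, Foxc2, Itga9 and Stab2), 0 passed, with a median of 0.43. Ccl21a and Reln were above the median of the negative control rows on all 9 arrays, Itga9 on 8, Mmrn1 on 5, Foxc2 and Stab2 on none. Prox1 was above it on 3 arrays, 1 of them from day 3 resected glands, so a change in Prox1 could be missed near background. Rgs5, the pericyte marker, differed by -0.44 ± 0.26 (adjusted p = 0.407).

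The promoter windows of Ednrb, Nrp2 and Pdpn, the genes with a window that rose by more than 2 log2 units on day 3, are given in the same form. They lie at chr14:103843652-103843951 (minus strand), chr1:62703067-62703366 (plus strand) and chr4:143299515-143299814 (minus strand) of GRCm38.p6.
Ednrb: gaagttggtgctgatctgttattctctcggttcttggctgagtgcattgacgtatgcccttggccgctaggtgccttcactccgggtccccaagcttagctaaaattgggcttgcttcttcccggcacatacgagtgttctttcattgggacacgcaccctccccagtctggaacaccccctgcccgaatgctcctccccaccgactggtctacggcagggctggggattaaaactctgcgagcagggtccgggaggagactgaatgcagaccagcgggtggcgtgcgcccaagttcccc
Nrp2: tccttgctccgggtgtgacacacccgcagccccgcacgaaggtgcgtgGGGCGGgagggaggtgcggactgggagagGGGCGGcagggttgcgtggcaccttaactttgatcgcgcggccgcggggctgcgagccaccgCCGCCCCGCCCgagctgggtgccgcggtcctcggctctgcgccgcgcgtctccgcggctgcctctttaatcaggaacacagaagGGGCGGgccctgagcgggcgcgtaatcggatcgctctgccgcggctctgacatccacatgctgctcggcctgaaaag
Pdpn: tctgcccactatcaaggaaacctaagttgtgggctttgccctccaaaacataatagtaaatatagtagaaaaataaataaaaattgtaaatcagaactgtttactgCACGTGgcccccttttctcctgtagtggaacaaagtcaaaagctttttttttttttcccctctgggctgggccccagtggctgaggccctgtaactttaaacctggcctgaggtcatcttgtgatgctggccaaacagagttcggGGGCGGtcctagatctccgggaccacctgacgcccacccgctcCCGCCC
The Ednrb window held none of the 5 motifs searched, and the Nrp2 window held 5 GC boxes and none of the other motifs. The Pdpn window held the palindrome CACGTG, counted once per strand as a hypoxia core, and 2 GC boxes.

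Markers of other cell types moved in the same arrays. All 8 measured macrophage markers rose on day 3 (median 2.98), among them Itgam (4.32 ± 0.31), Lyz2 (4.42 ± 0.35) and Trem2 (3.71 ± 0.31), and the list's mean level was 10.81 to 11.44 in day 3 resected arrays, against 7.51 to 8.24 in mock arrays. Of 7 fibroblast markers 6 rose (median 3.02), among them Col1a1 (5.12 ± 0.58), Col3a1 (4.69 ± 0.42), Col1a2 (4.14 ± 0.42) and Postn (3.02 ± 0.31), with mean levels of 13.11 to 14.68 in day 3 resected arrays, against 10.47 to 11.08 in mock arrays. Of 6 mast cell markers 3 rose (Cpa3, Mcpt4 and Tpsb2; median 0.89), with mean levels of 5.998 to 6.24 in day 3 resected arrays, against 4.84 to 5.40 in mock arrays. Of 5 platelet markers only Pf4, which macrophages can also express, rose (3.87 ± 0.51; list median 0.30). The part of these cells in the rises of Eng, Cd34, Lyve1, Pdpn, Nrp2, Aplnr and Ednrb was not tested. By contrast, of 12 genes listed as mural cell markers 0 rose and 1 fell, Myh11 of smooth muscle (-1.07 ± 0.26). The list's mean level was 7.12 to 7.46 in day 3 resected arrays, against 7.18 to 7.23 in mock arrays. Its brightest genes were Acta2, Anpep, Tagln and Myh11, with mock means of 14.45, 13.86, 10.93 and 9.63. Whether vessel cells or other cells of the gland carried these genes was not tested.

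Of 15 further endothelial markers, 2 rose: the transcription factor Fli1 (1.80 ± 0.31), which blood cells also express, and Cd93 (2.35 ± 0.44), which myeloid cells also carry. Cd93 was above the median of the negative control rows on all 3 day 3 resected arrays but on 0 day 14 and 0 mock arrays, so its size is uncertain. The median was 0.12. Of those that did not pass, Ecscr (1.03 ± 0.33, adjusted p = 0.0959, groups without overlap) and S1pr1 (0.53 ± 0.24, adjusted p = 0.257) had the lowest adjusted p. Of 7 genes for leukocyte adhesion on endothelium (Sele, Selp, Icam1, Vcam1, Ackr1, Cx3cl1 and Jam2), 0 passed (median 0.24). Vcam1 and Jam2 were above the median of the negative control rows on all 9 arrays and Cx3cl1 on 8. Icam1 was above it on 3, Selp on 2, and Sele and Ackr1 on none, so changes in these could be missed. Of 10 tip cell and endothelial Notch genes, 1 rose, the chemokine receptor Cxcr4 (2.18 ± 0.32), which leukocytes also carry (median 0.16). In this list Hey1, Jag1, Unc5b and Nid2 were above that control median on all 9 arrays and Cxcr4 on 8. Pdgfb was above it on 1, and Dll4, Notch1, Notch4 and Hey2 on none. Inhibitors of vessel growth had 3 of 7 that rose and 0 that fell: the thrombospondins Thbs1 (3.12 ± 0.36) and Thbs2 (3.02 ± 0.54) and the protease Adamts1 (1.29 ± 0.35), with a median of 0.40. Adamts1 was above the control median on all 3 day 3 resected arrays but on only 1 mock array, so its size is uncertain. The part of fibroblasts and macrophages in these rises was not tested.

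Genes of the hypoxia response stood beside the fall of Vegfa. Of 15, 4 rose and 0 fell on day 3 (median 0.43). Those that rose were the haem oxygenase Hmox1 (4.96 ± 0.56), the glycolytic regulator Pfkfb3 (1.39 ± 0.33), the lactate dehydrogenase subunit Ldha (1.18 ± 0.29) and Ndrg1 (1.32 ± 0.33). What raised these genes, and the part of macrophages in it, was not tested. Of those that did not pass, Bnip3 (-0.80 ± 0.26), Pgk1 (0.78 ± 0.30) and Epas1 (-0.56 ± 0.25) had the lowest adjusted p, and Hif1a differed by 0.45 ± 0.25. Of 7 genes of salivary gland identity, Egf (-2.94 ± 0.59) and the acinar factor Bhlha15 (-1.19 ± 0.31) fell beside Vegfa. The secretory gene Smgc did not pass (-1.93 ± 0.65, adjusted p = 0.113), though its groups did not overlap. Prol1, Pip and Klk1 sat at the array maximum on every array and could not show a fall, so the list's mean level, 16.35 to 16.59 in day 3 resected arrays, against 17.09 to 17.41 in mock arrays, understates any change. The part of a lower share of secretory cells in the fall of Vegfa was not tested. Lists for tissue that dissection could carry along had 0 of 5 adipocyte markers past the threshold (median -0.22), 0 of 5 skeletal muscle markers (median 0.05) and 1 of 6 lymph node markers (Cxcl13, 3.17 ± 0.39; median -0.12). The 1 red blood cell gene measured, Alas2, differed by 0.01.

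**Figure D3:**
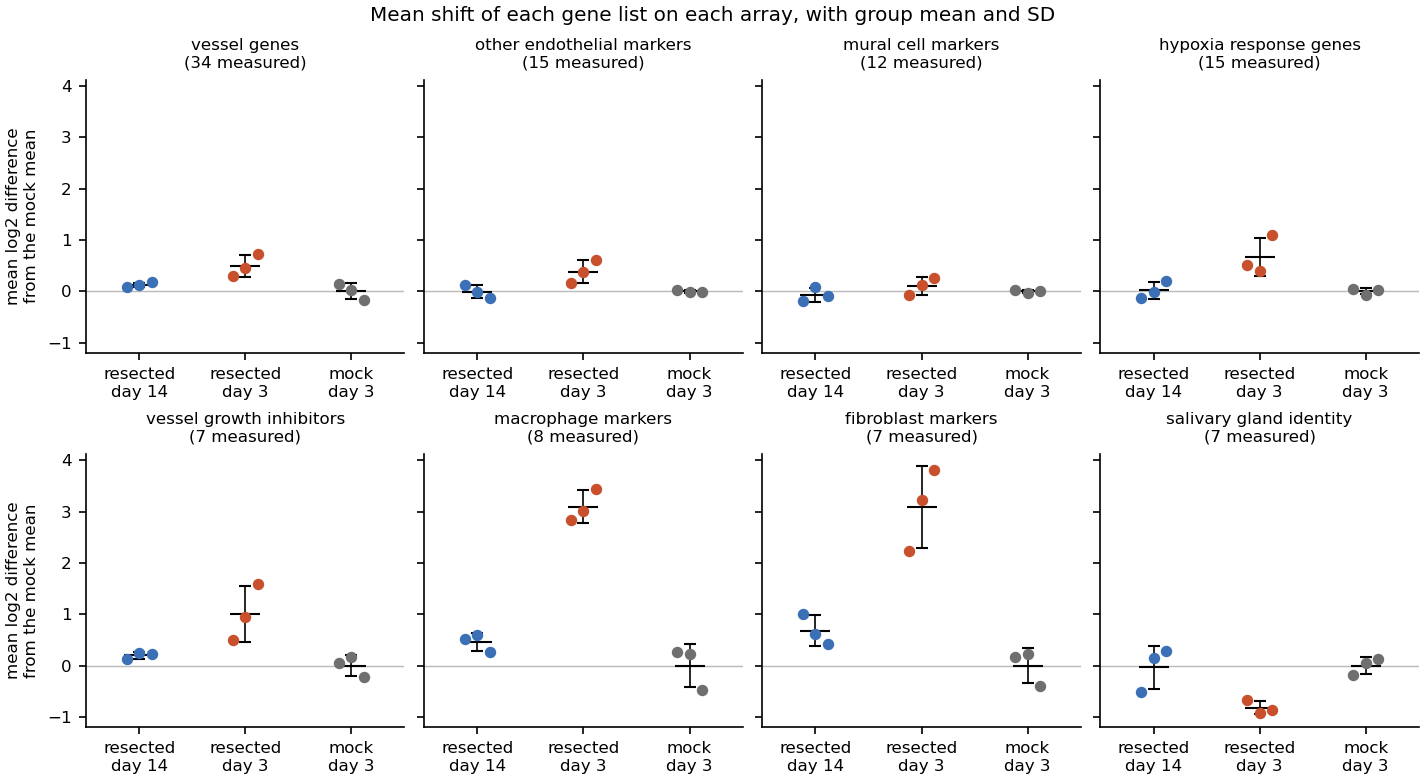
Mean over each gene list of the log2 level minus the gene's mean in mock glands, with a dot for each array, a bar for the group mean and whiskers for the SD (n = 3). The 34 vessel genes shift by 0.30 to 0.73 on day 3 resected arrays, against 2.83 to 3.45 for macrophage markers and 2.24 to 3.81 for fibroblast markers, while mural cell markers shift by -0.08 to 0.26.

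Resected glands on day 14 were compared with mock glands taken on day 3. Of the 34 vessel genes, 0 passed in limma, where 0.153% of all transcript clusters were called (0.0991% higher and 0.0540% lower). The lowest adjusted p among the vessel genes were those of Vegfc, Nrp2, Aplnr and Cdh5, all higher. The median over the 34 genes was 0.06, against -0.00124 over all transcript clusters. Vegfc differed by 1.00 ± 0.23 (adjusted p = 0.170), Nrp2 by 1.32 ± 0.38 (adjusted p = 0.325), Cdh5 by 0.64 ± 0.27 (adjusted p = 0.565) and Aplnr by 0.66 ± 0.24 (adjusted p = 0.515). Groups did not overlap for Vegfc, Nrp2, Cdh5 and Kdr, all higher on day 14, where 6.03% of all transcript clusters did the same and 6.99% were lower without overlap (13.0% in all). Of the 7 genes that had risen on day 3, Ednrb (-0.21 ± 0.30), Lyve1 (-0.13 ± 0.50) and Eng (0.08 ± 0.31) had means close to mock, and Pdpn (0.42 ± 0.45) and Cd34 (0.67 ± 0.40) were above it without passing. Vegfa differed by -0.57 ± 0.27, with a 95% interval of -1.16 to 0.02. The 8 blood vessel markers had a median of 0.15 and a range of -0.08 to 0.64, and Pecam1 differed by 0.07 ± 0.37. No member of the other 16 lists passed in this comparison.

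Day 14 against day 3 resected glands compares the later with the earlier stage of healing, and since mock arrays cancel it also tests if the 2 differences from mock are unequal. It uses the same day 3 resected arrays as the first comparison, so the values are not independent of it. Of the 34 vessel genes, 4 fell and 0 rose, where 4.88% of all transcript clusters were called lower and 1.40% higher. The 4 were among the 7 that had risen on day 3. Ednrb fell by 2.76 ± 0.30 (adjusted p = 1.01e-04, limma) and still passed when any 1 array was left out. Lyve1 fell by 2.26 ± 0.50 (adjusted p = 0.0158), Pdpn by 1.79 ± 0.45 (adjusted p = 0.0323) and Eng by 1.40 ± 0.31 (adjusted p = 0.0164). For each of the 4, all day 14 arrays lay below all day 3 resected arrays, as they did for Aplnr and Emcn, where 12.5% of all transcript clusters did so; 25.4% did not overlap in either direction and 12.9% were higher. The other genes that had risen on day 3 had differences that did not pass: Nrp2 of -1.12 ± 0.38 (adjusted p = 0.120), Cd34 of -0.86 ± 0.40 and Aplnr of -0.52 ± 0.24. Nrp2 passed without day 14 resected replicate 3 (-1.55, adjusted p = 0.0242). Vegfa was higher by 0.70 ± 0.27 and did not pass (adjusted p = 0.175). The 26 others that had not passed on day 3 did not pass here, among them Apln (-0.97 ± 0.36, adjusted p = 0.157), Cdh5 (-0.15 ± 0.27) and Vegfc (0.41 ± 0.23).

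The count of 4 was 1 without day 3 resected replicate 3, and 2 without day 3 resected replicate 2 or any 1 day 14 array. Without day 14 resected replicate 3 those 2 were Ednrb, and Nrp2, which was not among the 4. Eng stopped passing when replicate 2 or 3 of day 3, or replicate 1 or 3 of day 14, was dropped (-1.31 to -1.18, adjusted p 0.0702 to 0.0892). The Lyve1 call needed replicate 3 of day 3 and replicates 2 and 3 of day 14, each of which ended it when dropped (-2.17 to -2.04, adjusted p 0.0632 to 0.0835), and the Pdpn call ended without any 1 of the 6 arrays compared other than day 3 resected replicate 1 (-1.93 to -1.37, adjusted p 0.0674 to 0.153). Among the other lists, all 8 macrophage markers (median -2.69), 5 of 7 fibroblast markers (median -2.98), the endothelial markers Fli1 (-2.03), Cd93 (-2.31) and Ecscr (-1.33), both under the median of the negative control rows on all 3 day 14 arrays, the lymphatic integrin Itga9 (-0.97), Pf4 (-3.89), Cxcr4 (-1.83), Thbs1 (-3.03) and Thbs2 (-2.92), and the hypoxia genes Hmox1 (-5.08), Pfkfb3 (-1.36) and Ndrg1 (-1.21) fell, while Egf (2.83) and Bhlha15 (1.38) rose. The list of macrophage markers had mean levels of 8.25 to 8.58 on day 14, against 10.81 to 11.44 on day 3 after resection, and that of fibroblast markers 11.29 to 11.87, against 13.11 to 14.68. Their part in the falls of Eng, Lyve1, Pdpn and Ednrb was not tested. Mural, mast cell, adipocyte, muscle and leukocyte adhesion lists had 0 members past the threshold, and of the lymph node markers Cxcl13 fell (-3.30) and Cr2 rose (0.92), the last under the median of the negative control rows on all 9 arrays.

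**Figure D4:**
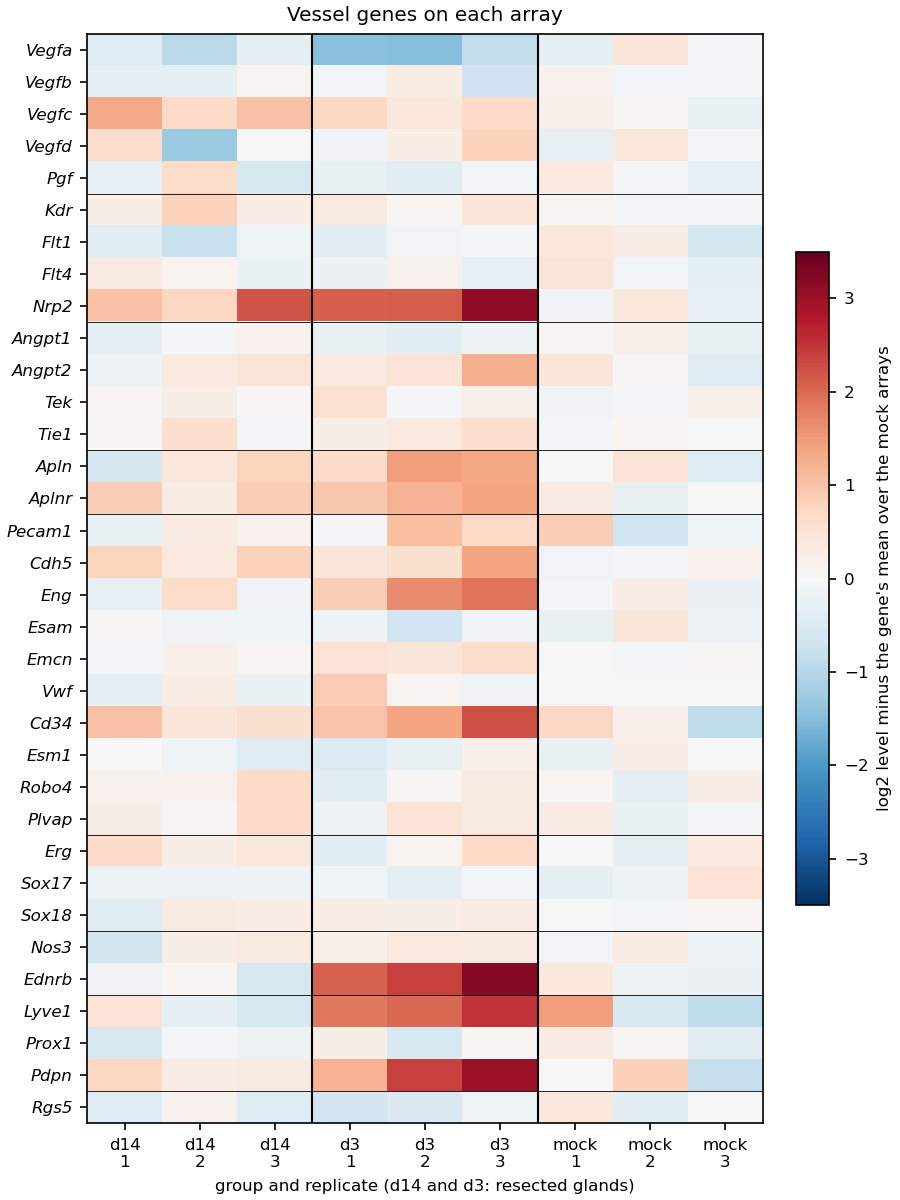
Level of each of the 34 vessel genes on each of the 9 arrays as the log2 difference from the gene's mean in mock glands, with columns for the arrays of the 3 groups and rows ordered by role; red is higher and blue lower than the mock mean. Nrp2, Ednrb, Lyve1 and Pdpn are red across the 3 day 3 resected arrays, most rows stay pale, and mock replicate 1 is red for Lyve1.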

How the data were processed

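RNA of 9 glands was measured on Clariom S arrays. The authors deposited 1 table of log2 values per transcript cluster; Transcriptome Analysis Console 4.0 is named in the series' design text and RMA in the submitters' processing notes, which is a method of background correction, normalisation between arrays and summary over probes. The genome build of the array annotation is not given in the sources used here. Of 28846 rows, 6640 controls were left out and 22206 transcript clusters tested. Symbols came from the platform's probe table, updated through Entrez identifiers with RefSeq of GRCm38.p6 (19572 clusters named, 2634 not). The deposited log2 values reached 19.93, and 337 clusters exceeded the 16 that a 16 bit scanner can record, so the scale may be stretched and a difference is not a calibrated fold; the highest value of a vessel gene was 12.60. The number of arrays limits the precision.

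All arrays entered 1 limma 3.58.1 model (R 4.3.3) with a mean per group and empirical Bayes variances (6 residual and 6.63 prior degrees of freedom). Tests were two-sided, intervals are 95%, and the code was tested on simulated data. The vessel genes and the 16 other lists (132 genes, 122 measured) were chosen with earlier results of these data known. All listed vessel genes are named, with every array's value for those past the threshold and a fixed panel of 8, and up to 3 genes per other list by lowest adjusted p; any others were named after their values were seen. Alternatives were quantile normalisation, median centring, leaving out the dimmest 30%, array weights, robust variances, only the groups compared, a replicate block, an unadjusted threshold with at least 2-fold, the mean of all clusters of a symbol, and leaving out each array. Promoter windows are RefSeq sequence.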

Additional observations from a re-analysis of the deposited data

Results flagged for a closer look

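The genes whose differences from mock were not the same on the 2 days, by the test of day 14 against day 3 resected glands, were Ednrb (-2.76), Lyve1 (-2.26), Pdpn (-1.79) and Eng (-1.40). All 4 were higher than mock on day 3 and did not pass against mock on day 14.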

How the results depend on the processing

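Of the 12 differences of vessel genes that passed, 0 reversed under any alternative run, and 3 passed under all of them: Nrp2 and Ednrb on day 3 against mock, and Ednrb on day 14 against day 3. Of the 90 that did not pass, 34 changed sign under at least 1 alternative, and with adjusted p-values 1 passed under at least 1, Nrp2 on day 14 against day 3. With an unadjusted p under 0.05 and at least 2-fold, Apln passed on day 3 against mock, Vegfc and Nrp2 on day 14 against mock, and Nrp2 on day 14 against day 3. Of all transcript clusters, 6.5%, 1.2% and 6.42% passed that threshold in these 3 comparisons, in the same order. The count of vessel genes that passed was 3 to 8 on day 3 against mock when each array was left out in turn, and 1 to 4 on day 14 against day 3. On day 14 against mock it was 0 in these fits, and 2 with the unadjusted threshold. Each vessel gene has 1 cluster, so the mean of clusters changed no value of theirs. With only 3 arrays a group, and 7 vessel genes under the median of the negative control rows on all arrays, small differences and dim genes are measured poorly.

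Replicate numbers were shared between groups, but deviations from the group means of same-numbered arrays correlated at -0.09 to 0.05, so the numbers were not taken to pair the glands. With the replicate number as a block, 7 vessel genes passed on day 3 against mock (Cd34 did not, adjusted p = 0.0620), 0 on day 14 against mock and 4 on day 14 against day 3.

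Differences that changed sign were not past the threshold, and the cause was not tested. For day 14 against day 3, quantile normalisation gave Cdh5 0.043, Esm1 -0.11, Sox17 -0.073 and Vegfb 0.12, median centring gave Vegfb 0.050, and array weights gave Esm1 -0.016. Quantile normalisation and array weights gave Robo4 0.083 and 0.0036 on day 3 against mock, and array weights gave Pecam1 -0.0016 on day 14 against mock. Leaving out each array gave, for day 3 against mock, Erg -0.12 to 0.42, Flt1 -0.48 to 0.013, Flt4 -0.29 to 0.11, Prox1 -0.28 to 0.14, Robo4 -0.18 to 0.18, Sox17 -0.35 to 0.067, Vegfb -0.42 to 0.074 and Vwf -0.022 to 0.49. For day 14 against mock it gave Angpt1 -0.22 to 0.042, Angpt2 -0.022 to 0.42, Apln -0.094 to 0.59, Emcn -0.011 to 0.13, Eng -0.21 to 0.26, Esam -0.21 to 0.14, Flt4 -0.12 to 0.28, Lyve1 -0.58 to 0.60, Nos3 -0.22 to 0.26, Pecam1 -0.28 to 0.50, Pgf -0.42 to 0.18, Sox17 -0.35 to 0.068, Sox18 -0.065 to 0.29, Tie1 -0.00034 to 0.32, Vegfd -0.65 to 0.30 and Vwf -0.29 to 0.0100. For day 14 against day 3 it gave Cdh5 -0.32 to 0.15, Esm1 -0.15 to 0.19, Kdr -0.053 to 0.25, Pgf -0.18 to 0.42, Plvap -0.082 to 0.25, Rgs5 -0.0039 to 0.34, Sox17 -0.064 to 0.054, Sox18 -0.30 to 0.051, Tek -0.25 to 0.043 and Vegfb -0.27 to 0.22.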
